A study of Mus musculus with 4 samples.

Results

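The genes described here form the mitotic machinery: the kinases and cyclins that start mitosis, the kinetochore and its checkpoint, the spindle, the anaphase-promoting complex axis and the proteins that divide the cell. A list of 40 mouse genes was matched by symbol or synonym to the accessions of the array probes, with Cdk1 also read under its older symbol Cdc2a. Of these, 39 genes had a probe and Prc1 had none, giving 58 probes of 41174 on the array. At least 1 probe of each of the 39 genes passed the filter on dim spots (55 of the 58 probes), so 39 of 12401 tested genes are described. In 38 of the 39 the probe used exceeded background clearly on every array in either channel. Ttk passed through the RapCA channel, with 3 of 4 arrays above background in the vector channel.

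The samples were cultured microvascular smooth muscle cells from male C57BL6 mice lacking Rap1a, a small GTPase of the Ras family. Cells given a RapCA shuttle vector, a name the labels do not spell out, were set against cells given the empty shuttle vector, so the knockout and viral exposure were common to both. Virus was applied overnight in serum-free medium at plating and was followed by 48 h of recovery in 0.5% serum, for cells otherwise grown in 10% serum. Total RNA of the RapCA cells was labelled with Cy3 and that of the vector cells with Cy5, and each of 4 two-colour arrays held 1 RNA of each kind. All 4 arrays ran in the same dye orientation on 1 slide, so the condition cannot be told apart from the dye. The labels call the arrays biological replicates but do not say whether they came from separate animals or cultures. The p-values therefore measure the spread between these arrays, which may be technical.

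Rap1a itself, the targeted gene, was lower in the channel labelled RapCA. Its probe had log2 ratios of RapCA over vector of -0.46, -1.02, -1.31 and -1.47 on replicates 1 to 4, a mean of -1.06 ± 0.44 (SD, n = 4, limma adjusted p = 0.00206). Its mean normalised log2 level was 11.7 in the RapCA channel and 12.7 in the vector channel, well above background on all arrays in cells labelled as Rap1a knockout. Whether the probe lies in the deleted part of the gene is not given in the sources used here, so it may check nothing. Every direction below is given for the channels as labelled. Smooth muscle identity was looked at through 10 markers, of which 8 exceeded background in either channel on every array, while Des and Myocd did so on none. Among the 8, Myh11 lay close to the floor. Its mean levels were 6.62 in the RapCA channel and 6.49 in the vector channel, against 6.21 and 6.30 for Myocd. Of 8 fibroblast markers 7 were above background throughout. Markers of other cell types were detected in part. Of 8 endothelial markers Kdr exceeded background in either channel on every array and Tek and Esam did so in the RapCA channel, while Cdh5, Emcn, Erg, Pecam1 and Tie1 did so on no array. Of 7 leukocyte markers with a probe Cd14 and Csf1r exceeded it in either channel and Lyz2 in the RapCA channel, while Adgre1, Fcgr1 and Itgam did so on no array. Of 6 epithelial markers Krt14 exceeded it in either channel and Krt5 and Krt8 in the vector channel, while Epcam did so on no array. Replicate 1 stood apart from the other arrays. It had 51.3% of probes above background in the vector channel, against 60.2% to 62.0% on the others, and the correlation of its ratios with theirs was 0.69 to 0.78 over all tested probes, against 0.93 to 0.98 among replicates 2 to 4.

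Entry into mitosis is driven by Cdk1 bound to A-type and B-type cyclins and is reinforced by the Polo and Aurora kinases. Chromosomes then attach to spindle microtubules through kinetochores, and a checkpoint holds the anaphase-promoting complex inactive until attachment is complete. The mRNAs of these genes are made mainly in the G2 and M phases, are largely switched off in resting cells, and are controlled by Foxm1 and by complexes that contain Mybl2, Lin9 or Lin54. Vascular smooth muscle cells are mostly quiescent in the vessel wall and divide in culture with serum.

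Promoters of such genes are known for 2 sequence elements, the cell cycle genes homology region, read by MuvB complexes, and the CCAAT box, read by NF-Y. Promoter sequences covering 250 bases before to 50 bases after the start were taken from RefSeq (build GRCm38.p6), which listed 35 promoters for 33 of the 40 genes. Aurkb, Ccna2, Cdc25c, Foxm1, Incenp, Kif20a and Tpx2 were not matched. The homology region was searched as TTTGAA on both strands (TTCAAA on the other) or as TTCGAA, which reads alike on both, and the CCAAT box as CCAAT on both strands (ATTGG on the other). At least 1 homology-region match stood in 28 of 35 promoters (80.0%), compared with 19.2% of all 32851 promoters of the same length. A match within 50 bases of the start was found in 26 (74.3%), compared with 5.31% of all. CCAAT occurred in 27 (77.1%) and at least 2 copies in 18 (51.4%), compared with 37.4% and 11.7% of all promoters. Both elements were present in 25 (71.4%), compared with 7.52% of all, and 1 homology-region match overlapped a CCAAT match. A match is a description of letters in this window and was not tested for binding. The sequences of 10 genes are printed, with ratios reported below from -1.63 for Cdc20 to -0.32 for Kif2c and -0.25 for Pttg1. Top2a, with the strongest ratio of -1.70, is not among them, nor is any gene called lower that has neither element. The printed genes were picked, so they do not show how the elements go with the ratios. Each runs 5′ to 3′ along the gene from 120 bases before the start to 30 after it, with capitals marking the matches of both elements.
Cdc20 (chr4:118437314-118437463, minus strand): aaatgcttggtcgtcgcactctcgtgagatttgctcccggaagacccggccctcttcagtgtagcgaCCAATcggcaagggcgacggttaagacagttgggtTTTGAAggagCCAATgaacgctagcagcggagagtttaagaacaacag
Ube2c (chr2:164769809-164769958, plus strand): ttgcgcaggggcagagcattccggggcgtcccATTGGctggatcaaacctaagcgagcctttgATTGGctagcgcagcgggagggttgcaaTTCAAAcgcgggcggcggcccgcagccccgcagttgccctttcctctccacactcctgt
Cdk1 (chr10:69352883-69353032, minus strand): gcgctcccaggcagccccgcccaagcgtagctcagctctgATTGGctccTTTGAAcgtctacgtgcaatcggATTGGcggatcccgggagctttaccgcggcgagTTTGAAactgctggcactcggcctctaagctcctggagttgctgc
Ccnb2 (chr9:70421525-70421674, minus strand): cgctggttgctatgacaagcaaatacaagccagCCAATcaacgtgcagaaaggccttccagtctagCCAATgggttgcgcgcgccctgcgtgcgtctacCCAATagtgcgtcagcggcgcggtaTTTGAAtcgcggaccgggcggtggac
Kif22 (chr7:127042391-127042540, minus strand): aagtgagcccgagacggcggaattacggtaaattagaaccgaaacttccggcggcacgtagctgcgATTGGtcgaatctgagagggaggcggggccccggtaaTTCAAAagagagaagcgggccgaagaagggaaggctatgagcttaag
Bub1 (chr2:127831830-127831979, minus strand): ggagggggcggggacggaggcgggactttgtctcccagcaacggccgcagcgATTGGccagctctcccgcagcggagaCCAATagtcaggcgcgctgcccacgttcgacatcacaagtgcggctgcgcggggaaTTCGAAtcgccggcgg
Cenpa (chr5:30666766-30666915, plus strand): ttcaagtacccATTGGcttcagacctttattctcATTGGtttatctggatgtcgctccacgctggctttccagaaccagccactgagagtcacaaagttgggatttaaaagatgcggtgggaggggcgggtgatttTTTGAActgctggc
Racgap1 (chr15:99651627-99651776, minus strand): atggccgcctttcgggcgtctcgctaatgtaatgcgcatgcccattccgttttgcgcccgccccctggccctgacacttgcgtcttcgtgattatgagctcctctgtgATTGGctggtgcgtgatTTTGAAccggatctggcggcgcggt
Kif2c (chr4:117178743-117178892, minus strand): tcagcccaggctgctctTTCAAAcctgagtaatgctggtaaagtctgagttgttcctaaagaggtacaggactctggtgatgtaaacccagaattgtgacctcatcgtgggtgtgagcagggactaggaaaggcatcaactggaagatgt
Pttg1 (chr11:43425952-43426101, minus strand): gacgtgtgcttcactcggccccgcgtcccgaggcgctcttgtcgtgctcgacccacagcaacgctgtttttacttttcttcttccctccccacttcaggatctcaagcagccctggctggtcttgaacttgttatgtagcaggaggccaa

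Cdc20, Ube2c, Cdk1, Ccnb2, Bub1 and Cenpa each carried at least 1 homology-region match and at least 2 CCAAT matches in the printed window, while Kif22 and Racgap1 carried 1 of each. Kif2c held 1 homology-region match, far upstream of the start, and no CCAAT match, and Pttg1 held neither. Among the other promoters, Birc5, Ccnb1, Cenpe, Mad2l1, Nuf2 and Nusap1 had no homology-region match in the whole 300-base region. Each of their mRNAs was called lower in the RapCA channel. Birc5, Mad2l1, Nuf2 and Nusap1 lacked CCAAT there as well, so of 5 tested genes with neither element 4 were called lower, all but Pttg1. Kif23, which was not called on its brightest probe but was called lower on its other tested probe, had both elements close to the start. Ndc80, not called on its only probe, had a homology-region match near the start and no CCAAT match. Whether the elements go with the calls was not tested. Positions of the matches are shown for every listed gene in the map of promoter elements.

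**Figure D1:**
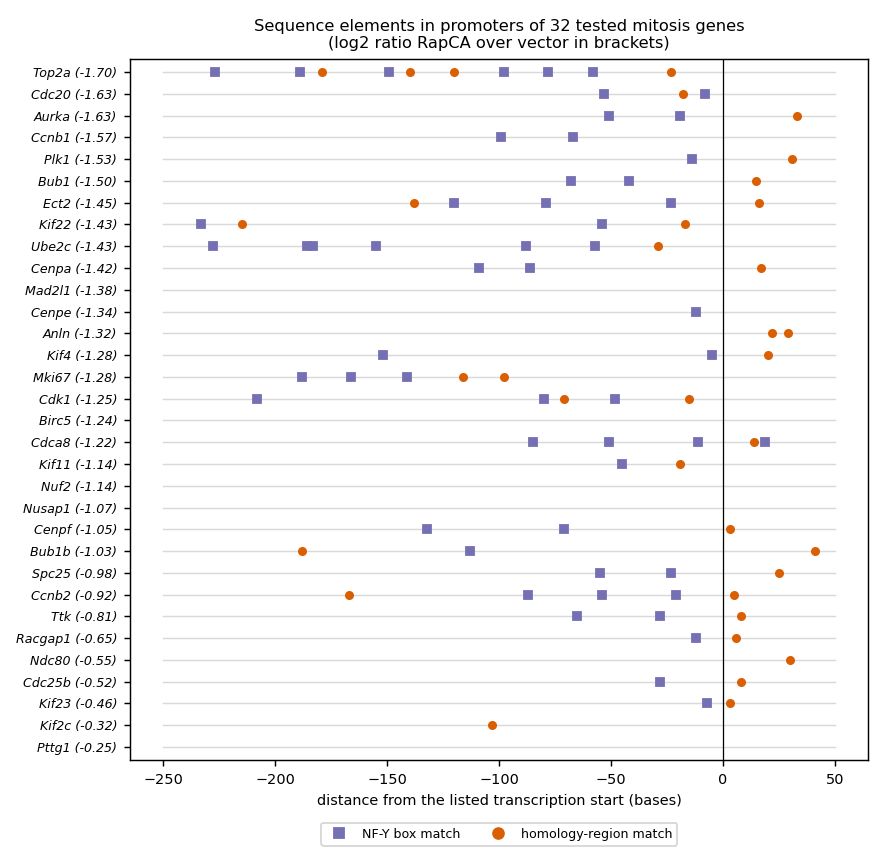
Distance in bases from the listed transcription start (horizontal axis) of each homology-region match (circles) and each CCAAT match (squares, labelled NF-Y box) in the promoters of 32 tested genes, ordered by log2 ratio of RapCA over vector, given in brackets. Homology-region matches gather near the start and CCAAT matches lie mostly upstream of it, while Birc5, Mad2l1, Nuf2, Nusap1 and Pttg1, with ratios of -1.24, -1.38, -1.14, -1.07 and -0.25, have neither.

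The mitotic genes were lower in the RapCA channel as a body. The brightest probe of each gene stands for it, levels are normalised log2 intensities, and a log2 ratio is RapCA over vector, so that -1 means a 2-fold lower level in the RapCA channel. Of 39 genes 35 fell and none rose (limma, adjusted p under 0.05 over 23511 probes), while 24.9% of all 12401 genes were called lower and 28.9% higher, 53.8% in either direction. Lower calls made up 46.3% of all calls over genes, and 61.6% under median centring in place of loess. The median log2 ratio over the 39 genes was -1.23, compared with 0.02 over all genes. The fall was at least 2-fold for 28 of 39, against a background of 7.47%, and at least 4-fold for none, against a background of 1.15%. Ratios ran from -1.70 for Top2a to -0.25 for Pttg1. The 4 genes that did not pass were Ndc80, Kif23, Kif2c and Pttg1, all with mean ratios below 0. At an unadjusted p under 0.05, 38 of 39 were lower and 0 higher. In RNA of a whole culture, fewer dividing cells and less of each mRNA per cell cannot be told apart.

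Of the 39 genes 35 were below 0 on all 4 arrays, with a background of 29.4%, and the exceptions were Ndc80, Ttk, Kif23 and Racgap1, each at or above 0 on replicate 1 alone. Levels of the channels did not overlap, all RapCA levels lying below all vector levels, for 18 of the 39 genes, with a background of 20.7%. When replicate 1 was left out, 39 of 39 genes were called lower, with 34% of all genes then called lower, and the median over the 39 was -1.31. With replicate 4 left out, 31 were called and the median was -1.03. Median centring in place of loess called 24 of 39 lower, with 20% of all genes then called lower. Beside Ndc80, Kif23 and Kif2c, the genes not called under that scaling were Anln, Bub1b, Cdc25c, Cenpf, Kif20a, Kif4, Mad2l1, Nuf2, Nusap1, Racgap1, Spc25 and Ttk, while Pttg1 was called lower.

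**Figure D2:**
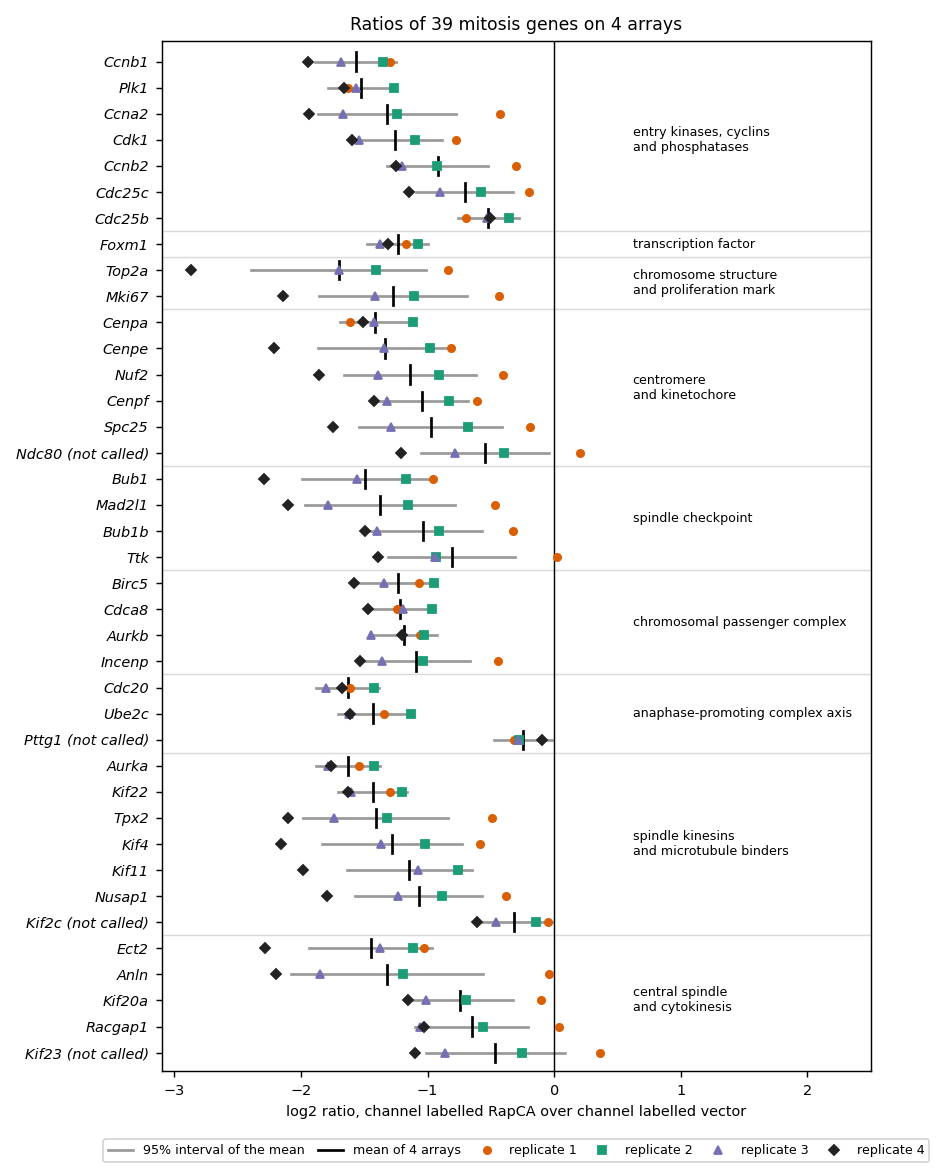
Log2 ratio of RapCA over vector (horizontal axis) for each of the 39 mitotic genes, grouped by role, with 1 symbol per array, the mean of the 4 arrays as a vertical bar and its 95% interval as a grey line. All means lie below 0, from -1.70 for Top2a to -0.25 for Pttg1, and the symbol of replicate 1 is the rightmost of the 4 for 27 genes.

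All 7 genes of mitotic entry fell, with a median log2 ratio of -1.25. Ccnb1, the B-type cyclin that activates Cdk1 for mitosis, had levels of 11.12, 11.36, 10.99 and 10.81 in the RapCA channel on replicates 1 to 4, against 12.42, 12.71, 12.67 and 12.76 in the vector channel. Its ratio averaged -1.57 ± 0.30 (SD, n = 4, limma adjusted p = 0.000148), and the channels did not overlap. Ccnb2, the second B-type cyclin, had 13.66, 13.65, 13.39 and 13.33 in the RapCA channel, against 13.96, 14.58, 14.59 and 14.59 in the vector channel, again without overlap. The fall of Ccnb2 was smaller, at -0.92 ± 0.44 (limma adjusted p = 0.00376), and within each array Ccnb1 lay lower than Ccnb2 by a mean difference of ratios of -0.65 ± 0.26. That order held on 4 of 4 arrays, with an exact two-sided sign-flip p of 0.125, the smallest that 4 arrays allow.

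Ccna2, the cyclin of S phase and G2, had levels of 12.11, 12.59, 12.04 and 11.72 in the RapCA channel, against 12.54, 13.84, 13.71 and 13.66 in the vector channel. The highest RapCA level therefore exceeded the lowest vector level, that of replicate 1, and the mean ratio was -1.32 ± 0.66 (limma adjusted p = 0.00313). Cdk1, the kinase shared by these cyclins, had 11.96, 11.94, 11.54 and 11.51 in the RapCA channel, against 12.74, 13.04, 13.08 and 13.10 in the vector channel. Its channels did not overlap, and its ratio was -1.25 ± 0.39 (limma adjusted p = 0.000682).

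Plk1, the Polo kinase that acts from entry to cytokinesis, had 13.23, 13.26, 12.93 and 12.88 in the RapCA channel, against 14.85, 14.53, 14.50 and 14.54 in the vector channel. The arrays lay close together, with a ratio of -1.53 ± 0.18 (limma adjusted p = 7.4e-05), and the channels were far apart. The phosphatases that remove the inhibitory phosphates of Cdk1 fell less. Cdc25b had ratios of -0.69, -0.36, -0.53 and -0.51, a mean of -0.52 ± 0.14 (limma adjusted p = 0.00497), and Cdc25c had -0.20, -0.58, -0.90 and -1.15, a mean of -0.71 ± 0.41 (limma adjusted p = 0.0098). These phosphatases did not differ by more than their spread, at -0.18 ± 0.49 for Cdc25c minus Cdc25b (exact sign-flip p = 0.5). The Cdc25b value rests on 1 of its 3 tested probes, since the others had ratios of -0.03 and 0.00 and were not called.

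Foxm1, a forkhead transcription factor that activates genes of G2 and M, fell with them. It had levels of 11.45, 11.27, 11.06 and 11.10 in the RapCA channel, against 12.61, 12.35, 12.44 and 12.42 in the vector channel. No RapCA level reached any vector level, and the mean ratio was -1.23 ± 0.14 (limma adjusted p = 0.000126), one of the narrowest spreads of the 39.

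Mki67, which coats mitotic chromosomes and marks cycling cells, and Top2a, the topoisomerase that untangles replicated DNA, both fell, and both varied widely between arrays. Mki67 had levels of 11.66, 12.55, 11.95 and 11.52 in the RapCA channel, against 12.10, 13.66, 13.37 and 13.66 in the vector channel, a ratio of -1.28 ± 0.71 (limma adjusted p = 0.00479). Top2a had 9.32, 10.46, 10.09 and 9.14 in the RapCA channel, against 10.16, 11.87, 11.79 and 12.01 in the vector channel. The Top2a ratio was -0.84 on replicate 1 and -2.87 on replicate 4, with a mean of -1.70 ± 0.86 (limma adjusted p = 0.00282). The other Top2a probe averaged -1.17 ± 0.61 (limma adjusted p = 0.004). For both genes the vector level of replicate 1 was the lowest of its channel and lay below the RapCA level of replicate 2.

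**Figure D3:**
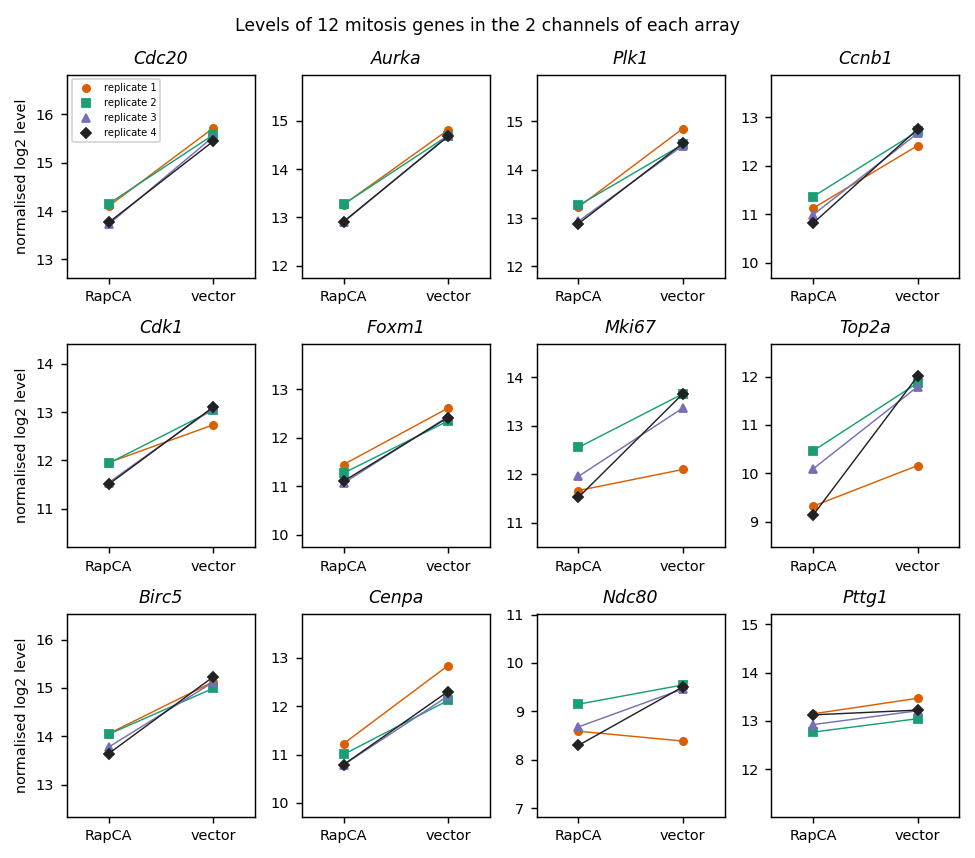
Normalised log2 level (vertical axis) of 12 mitotic genes on each array, with the RapCA channel left of the vector channel and a line joining the channels of 1 array. The channels are separate for genes such as Cdc20, Aurka and Plk1, overlap for Mki67, Top2a and Ndc80, where the vector level of replicate 1 is low, and lie close together for Pttg1.

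At the centromere and kinetochore 5 of 6 genes fell, with a median log2 ratio of -1.09. Cenpa, the histone H3 variant that marks centromeres, had levels of 11.22, 11.00, 10.79 and 10.79 in the RapCA channel, against 12.84, 12.12, 12.21 and 12.30 in the vector channel. Its channels did not overlap and its ratio was -1.42 ± 0.21 (limma adjusted p = 0.000119). Cenpe, a kinetochore motor that brings chromosomes to the spindle equator, had ratios of -0.81, -0.98, -1.35 and -2.22, a mean of -1.34 ± 0.63 (limma adjusted p = 0.00243). Its dimmer probes averaged -0.96 ± 0.56 and -0.62 ± 0.36 (limma adjusted p = 0.00712 and 0.0114). Cenpf, a large kinetochore and matrix protein, had -0.61, -0.83, -1.32 and -1.43, a mean of -1.05 ± 0.39 (limma adjusted p = 0.00152). The Ndc80 complex, which holds microtubule ends, was represented by Ndc80, Nuf2 and Spc25, and these had their smallest ratios in size on replicate 1. Nuf2 averaged -1.14 ± 0.62 (limma adjusted p = 0.0049) and Spc25 -0.98 ± 0.68 (limma adjusted p = 0.0128). Ndc80 had 0.20, -0.40, -0.78 and -1.21, and its mean of -0.55 ± 0.60 did not pass (limma adjusted p = 0.0712). Without replicate 1 it was called lower, at -0.80 (limma adjusted p = 0.00329).

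All 4 genes of the spindle checkpoint fell, with a median log2 ratio of -1.20. Bub1, a checkpoint kinase at the kinetochore, had levels of 8.83, 9.95, 9.39 and 8.78 in the RapCA channel, against 9.79, 11.12, 10.95 and 11.06 in the vector channel. Its RapCA level on replicate 2 exceeded its vector level on replicate 1, and its ratio was -1.50 ± 0.58 (limma adjusted p = 0.00117). A second Bub1 probe, designed to another transcript accession, had a ratio of -0.09 and was not called. Bub1b, which encodes the BubR1 part of the checkpoint complex, averaged -1.03 ± 0.54 (limma adjusted p = 0.00447). On its brightest probe the Bub1 ratio lay below that of Bub1b on 4 of 4 arrays, by -0.46 ± 0.30 (exact sign-flip p = 0.125, the smallest possible). With the mean of the Bub1 probes the order turned, at -0.79 for Bub1 and -1.03 for Bub1b. Mad2l1, the Mad2 protein that binds Cdc20, had ratios of -0.47, -1.16, -1.78 and -2.10, a mean of -1.38 ± 0.72 (limma adjusted p = 0.00366). Ttk, the Mps1 kinase that starts checkpoint signalling, had 0.02, -0.93, -0.94 and -1.39, a mean of -0.81 ± 0.59 (limma adjusted p = 0.0172). The call of Ttk was lost when replicate 2, 3 or 4 was left out, with ratios of -0.77, -0.77 and -0.62 (limma adjusted p = 0.0619, 0.056 and 0.0707).

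The chromosomal passenger complex corrects faulty attachments and then moves to the midzone. On their brightest probes its 4 genes fell by similar amounts, with a median log2 ratio of -1.20. Aurkb, its kinase, had levels of 9.33, 9.04, 8.66 and 8.79 in the RapCA channel, against 10.39, 10.06, 10.11 and 10.00 in the vector channel, a ratio of -1.18 ± 0.19 (limma adjusted p = 0.00021). Birc5, or survivin, had 14.06, 14.04, 13.78 and 13.64 in the RapCA channel, against 15.13, 14.99, 15.12 and 15.23 in the vector channel, a ratio of -1.24 ± 0.28 (limma adjusted p = 0.000336). Cdca8, or borealin, had a ratio of -1.22 ± 0.21 (limma adjusted p = 0.00021), and the scaffold Incenp one of -1.09 ± 0.48 (limma adjusted p = 0.0024). The other Cdca8 probe averaged -0.82 ± 0.31 (limma adjusted p = 0.00236). On the brightest probes the channels did not overlap for any of the 4 subunits. The mean ratios of these probes spanned -1.24 to -1.09, less than the SD of Incenp alone, and the other Cdca8 probe lay outside that span.

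In the anaphase-promoting complex axis, 2 of 3 genes fell strongly and the third did not pass. Cdc20, the activator that the checkpoint restrains, had levels of 14.10, 14.15, 13.73 and 13.77 in the RapCA channel, against 15.72, 15.58, 15.53 and 15.44 in the vector channel. Its ratio of -1.63 ± 0.16 had the smallest adjusted p of the 39 genes (limma adjusted p = 5.47e-05). Ube2c, the ubiquitin-conjugating enzyme that works with the complex, had 13.08, 13.17, 12.64 and 12.59 in the RapCA channel, against 14.43, 14.30, 14.27 and 14.20 in the vector channel. The Ube2c ratio was -1.43 ± 0.24 (limma adjusted p = 0.000134), and neither gene had overlapping channels. Pttg1, the securin that is destroyed to release sister chromatids, had 13.15, 12.77, 12.93 and 13.13 in the RapCA channel, against 13.47, 13.05, 13.21 and 13.22 in the vector channel. Its channels overlapped and its ratio was -0.25 ± 0.10 (unadjusted 95% interval -0.48 to -0.02, limma adjusted p = 0.0731), the mean nearest to 0 and the smallest SD of the 39. Within each array the Cdc20 ratio lay below that of Pttg1, by -1.38 ± 0.20 and on 4 of 4 arrays (exact sign-flip p = 0.125, the smallest possible). Since Pttg1 has the mean nearest to 0, this order followed from the choice of the pair and the p supports nothing.

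Among the spindle kinases, kinesins and microtubule binders 6 of 7 genes fell, with a median log2 ratio of -1.28. Aurka, which matures centrosomes and is activated by Tpx2, had levels of 13.26, 13.27, 12.90 and 12.91 in the RapCA channel, against 14.81, 14.69, 14.69 and 14.67 in the vector channel. The channels were separate and the ratio was -1.63 ± 0.18 (limma adjusted p = 5.79e-05). The Aurka ratio lay below that of Aurkb, a much dimmer gene, on 4 of 4 arrays, by -0.44 ± 0.10 (exact sign-flip p = 0.125, the smallest possible). With the deposited ratios, taken to log2, the means lay closer together, at -1.71 for Aurka and -1.41 for Aurkb. Tpx2 had ratios of -0.49, -1.32, -1.74 and -2.10, a mean of -1.41 ± 0.69 (limma adjusted p = 0.00286), and so varied more between arrays than the kinase it activates.

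Kif22, the chromokinesin that pushes chromosome arms outward, had levels of 13.79, 13.74, 13.41 and 13.40 in the RapCA channel, against 15.09, 14.94, 15.02 and 15.03 in the vector channel. Its channels did not overlap, and its ratio was -1.43 ± 0.22 (limma adjusted p = 0.000114). Kif4, the other chromokinesin listed, had a similar mean of -1.28 but a wider SD of 0.67 (limma adjusted p = 0.0037). Kif11, the motor that separates spindle poles, averaged -1.14 ± 0.58 (limma adjusted p = 0.00369), and Nusap1, which bundles spindle microtubules, -1.07 ± 0.60 (limma adjusted p = 0.00543). Kif2c, which depolymerises microtubule ends, had 8.70, 8.84, 8.48 and 8.33 in the RapCA channel, against 8.75, 8.98, 8.94 and 8.94 in the vector channel. Its levels overlapped and its mean ratio of -0.32 ± 0.26 did not pass (unadjusted 95% interval -0.61 to -0.02, limma adjusted p = 0.073).

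The central spindle and cytokinesis genes fell least as a group, with a median log2 ratio of -0.74 and 4 of 5 called. Kif23 and Racgap1 are the 2 proteins of centralspindlin, which builds the midzone and recruits Ect2, the exchange factor that turns on RhoA for the contractile ring. Ect2 had levels of 10.10, 11.14, 10.75 and 9.92 in the RapCA channel, against 11.13, 12.25, 12.12 and 12.21 in the vector channel. Its highest RapCA level was just above its lowest vector level, that of replicate 1, and its ratio was -1.45 ± 0.57 (limma adjusted p = 0.00125). Racgap1 had ratios of 0.04, -0.56, -1.06 and -1.03, a mean of -0.65 ± 0.51 (limma adjusted p = 0.0255). The Ect2 ratio lay below that of Racgap1 on 4 of 4 arrays, by -0.80 ± 0.44 (exact sign-flip p = 0.125, the smallest possible). The Racgap1 call was lost when replicate 2, 3 or 4 was left out, with ratios of -0.68, -0.52 and -0.53 (limma adjusted p = 0.0667, 0.107 and 0.106). The other Racgap1 probe had -0.49 on replicate 1 and a mean of -0.62 ± 0.18 (limma adjusted p = 0.00312).

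Kif23 had ratios of 0.36, -0.26, -0.86 and -1.10 on its brightest probe, and the mean of -0.46 ± 0.66 did not pass (limma adjusted p = 0.139). Its other tested probe averaged -0.78 and was called lower (limma adjusted p = 0.0091). Kif20a, the kinesin that carries the passenger complex to the midzone, averaged -0.74 ± 0.47 (limma adjusted p = 0.0115), a call lost without replicate 3 or 4 (limma adjusted p = 0.0516 and 0.0519). Anln, or anillin, which links actin, myosin and septins in the ring, had levels of 7.99, 8.98, 8.26 and 7.84 in the RapCA channel, against 8.03, 10.17, 10.11 and 10.03 in the vector channel. On this probe the channels differed on replicates 2 to 4 and hardly on replicate 1, and the ratio of -1.32 ± 0.95 had the largest SD of the 39 genes (limma adjusted p = 0.0125). The call was lost without replicate 4, at -1.03 (limma adjusted p = 0.0547). The other Anln probe had a ratio of -0.97 on replicate 1 and a mean of -1.64 ± 0.62 (limma adjusted p = 0.000951).

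Most genes with several probes gave the same call on each. Of the 55 tested probes 48 were called lower, none higher and 7 not called, while 23.2% of all tested probes were called lower and 49.6% in either direction. Among 13 genes with more than 1 tested probe, 10 had every probe called lower, and Bub1, Cdc25b and Kif23 had some.

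Spread between arrays differed among the genes, and replicate 1 differed from the others mainly in the vector channel. The median SD of the 39 genes was 0.48, compared with 0.26 over all genes, and 28 of the 39 exceeded that value. The median log2 ratio of the 39 was -0.58, -1.02, -1.37 and -1.61 on replicates 1 to 4, compared with 0.05, 0.02, 0.02 and 0.03 over all genes. Replicate 1 had the highest ratio of the 4 arrays for 27 genes, and replicate 4 had the lowest for 30. The vector level was the lowest of its channel on replicate 1 for 27 of 39 genes, while the RapCA level was lowest there for Ttk alone. Median vector level on replicate 1 minus the mean of the other arrays was -0.68, with a range of -2.07 for Anln to 0.63 for Cenpa. The same difference was 0.11 in the RapCA channel, and over all genes it was 0.07 in the RapCA channel and 0.10 in the vector channel. Over replicates 2 to 4 the vector levels of a gene spanned a median of 0.11. The same span was not computed for the RapCA channel, where levels moved as well. On replicates 2, 3 and 4 Mki67 had RapCA levels of 12.55, 11.95 and 11.52. Pttg1 went the other way, with 12.77, 12.93 and 13.13. Differences among these arrays are therefore not confined to the vector channel. Replicate 1 also had the fewest probes above background in the vector channel, as given above, and its part in the smaller ratios was not tested.

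Some genes varied less between arrays. Cdc20, Aurka, Plk1, Aurkb, Cdca8, Cenpa, Kif22, Ube2c, Birc5, Foxm1, Cdc25b, Ccnb1, Kif2c and Pttg1 had SDs of up to 0.31, a limit chosen after the values were seen. On replicate 1 Ccnb1 and Kif2c still had their highest ratio and lowest vector level, and the others had neither. These 14 genes include the 3 with the smallest adjusted p, Cdc20, Aurka and Plk1, and also Kif2c and Pttg1, which did not pass. Over the 39 genes correlations of the ratios on replicate 1 with those on each other array were 0.27 to 0.65, and among replicates 2 to 4 they were 0.75 to 0.93, a correlation across genes that share arrays.

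**Figure D4:**
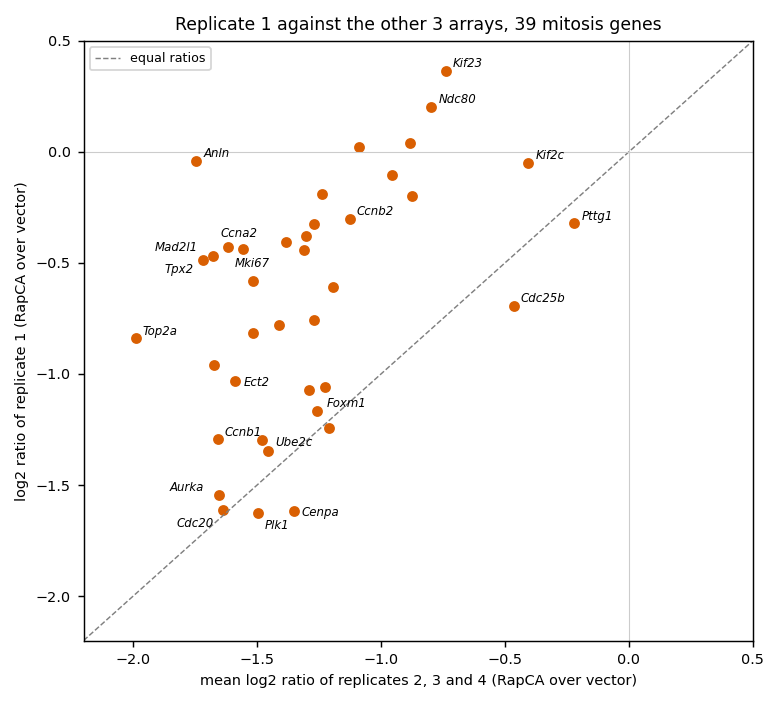
Log2 ratio of RapCA over vector on replicate 1 (vertical axis) against the mean ratio of replicates 2 to 4 (horizontal axis), 1 point per mitotic gene, with a dashed line where the ratios are equal. Most genes lie above the line, farthest for Anln, and genes such as Cdc20, Aurka, Ube2c and Pttg1 lie near it.

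Other genes of the same pathways, from lists without the 39, were lower for most steps but not all. Of 194 such genes tested 120 fell, 18 rose and 56 did not pass, with a median log2 ratio of -0.67, which can be read against the 24.9% lower and 28.9% higher of all genes. Among 16 further genes of mitotic entry 13 fell, with a median of -1.20. Mybl2, a Myb factor of the G2 and M program, averaged -2.45 ± 0.32, Ccnf, the cyclin F of a ubiquitin ligase, -1.92 ± 0.23, Haspin, the histone H3 kinase of inner centromeres, -1.46 ± 0.21, and Gtse1, a microtubule-bound regulator of G2, -1.28 ± 0.09. Ensa, an inhibitor of the phosphatase that opposes Cdk1, was the 1 that rose, by 0.59 ± 0.18. All ± values of further genes are SDs over 4 arrays, and the largest limma adjusted p among those named as called is 0.0371, for Nek9.

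Of 38 further centromere and kinetochore genes 34 fell and 1 rose, with a median of -1.02. Zwint, which links the kinetochore to checkpoint proteins, averaged -2.52 ± 0.45, Nsl1 of the Mis12 complex -1.83 ± 0.31, Mis18a, which helps load Cenpa, -1.58 ± 0.37, and Cenpw of the inner kinetochore -1.32 ± 0.09. Cenpb, which binds a repeat in centromeric DNA, rose by 1.38 ± 0.40. Condensin and cohesin genes, which shape and join chromatids, fell in 14 of 18 cases with none higher (limma, 0 higher also at an unadjusted p under 0.05) and a median of -0.93. Under median centring in place of loess 7 of these 18 were called lower, and without replicate 1, 17 were lower and 1 higher. Smc2 of condensin averaged -1.89 ± 0.53, its partners Ncapg2 -1.76 ± 0.49 and Ncapd2 -1.27 ± 0.30, and Cdca5, the sororin that protects cohesin, -1.69 ± 0.21.

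Spindle motors and microtubule binders beyond the 39 fell in 20 of 32 cases and rose in 2, with a median of -0.63. Haus4 of the augmin complex averaged -1.75 ± 0.15, Haus8 of the same complex -1.53 ± 0.14, Kif18b, which limits astral microtubules, -1.73 ± 0.17 and the kinesin Kif20b -1.58 ± 0.42. Numa1, which anchors microtubules at the pole, rose by 0.88 ± 0.57, and Kif3a, a ciliary and transport motor, by 0.49 ± 0.28. Centrosome genes fell in 14 of 22 cases and rose in 4, with a median of -0.65. Under median centring 8 were lower and 0 higher, and 10 were lower without replicate 2, 3 or 4. Cep55, which moves to the midbody for abscission, averaged -1.64 ± 0.48, Cep57 -1.28 ± 0.50 and Sass6, of the centriole cartwheel, -1.12 ± 0.20, while the NIMA-related kinases Nek7, Nek6 and Nek9 rose by 0.77 ± 0.50, 0.71 ± 0.10 and 0.67 ± 0.60 and the centrin Cetn2 by 0.50 ± 0.27.

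For 2 lists the direction was mixed. Subunits and regulators of the anaphase-promoting complex fell in 4 of 19 cases and rose in 3, with a median of -0.01. Fbxo5, the Emi1 inhibitor of the complex, averaged -1.68 ± 0.63, Espl1, the separase that Pttg1 holds in check, -1.14 ± 0.13, and Anapc15 -0.65 ± 0.19, while the subunit Anapc13 rose by 0.87 ± 0.11, the ubiquitin-conjugating enzyme Ube2d1 by 0.55 ± 0.30 and the cullin-like subunit Anapc2 by 0.35 ± 0.20. Cytokinesis genes beyond the 39 fell in 10 of 28 cases and rose in 7, with a median of 0.07, on the other side of 0 from most of the calls, and of -0.16 without replicate 1. Depdc1b averaged -1.35 ± 0.30, while Chmp2a, of the abscission machinery, rose by 1.19 ± 0.09, Arhgef2, a microtubule-bound exchange factor, by 1.07 ± 0.26 and Septin9, a filament protein of the cleavage furrow, by 0.97 ± 0.18. Calls in both directions depended on the scaling. Under median centring in place of loess, lower calls numbered 9 of 16 in the mitotic entry list, 25 of 38 in the kinetochore list, 7 of 18 in the condensin and cohesin list, 16 of 32 in the spindle list and 8 of 22 in the centrosome list, with a lower median in each. Under the same scaling 0 genes of the anaphase-promoting complex list and 2 of the cytokinesis list were called higher, and the medians moved to -0.51 and -0.31. Of the genes named above as higher, Ensa, Numa1, Kif3a, Arhgef2, Anapc13, Ube2d1, Nek6, Nek7, Nek9 and Cetn2 were then not called, while Anapc2 changed sign to -0.07. Among these named genes, calls were also lost without replicate 2 (Anapc2, Cetn2, Kif3a and Ube2d1), without replicate 3 (Anapc2 and Cetn2) and without replicate 4 (Anapc2, Nek9 and Ube2d1). Anapc2 was not called either with a normexp offset of 16 (limma adjusted p = 0.0556). With the scanner software's own log ratio Anapc2 and Nek9 were not called (limma adjusted p = 0.166 and 0.0601).

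Transcription factors of the program other than Foxm1 fell in 12 of 22 cases with none higher (limma, 1 higher at an unadjusted p under 0.05), and their median was -0.56. E2f2, an activator of S phase genes, averaged -2.14 ± 0.21, and the repressors E2f8 and E2f7 -1.74 ± 0.33 and -1.62 ± 0.54, beside Mybl2 given above. For DNA replication and G1/S genes, the preceding stage of the cycle, 27 of 29 fell and none rose (limma, 0 higher also at an unadjusted p under 0.05), with a median of -1.35. Of these 29, 7 fell by at least 4-fold, including Cdt1 at -2.38 ± 0.21 and Orc1 at -2.08 ± 0.27, which load the replicative helicase, while 0 of the 39 mitotic genes did. The median of the replication genes was -1.13, -1.23, -1.60 and -1.66 on replicates 1 to 4, and that of the mitotic genes -0.58, -1.02, -1.37 and -1.61, so the lists lay furthest apart on replicate 1. This difference between lists was not tested.

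**Figure D5:**
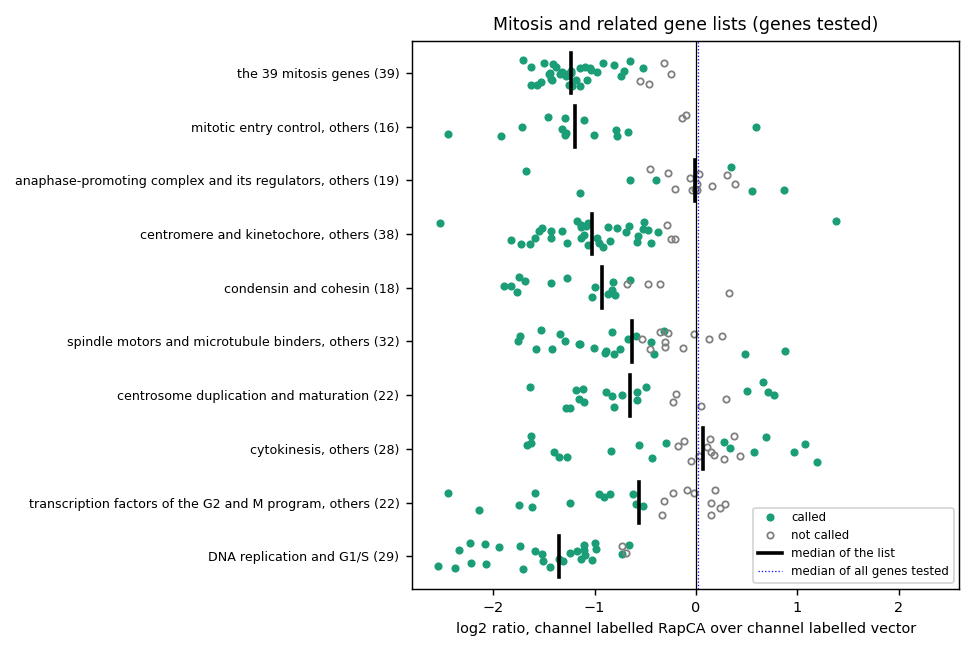
Log2 ratio of RapCA over vector (horizontal axis) of each tested gene of the mitotic genes and of the further lists, with filled points for called genes, open points for genes not called, a bar at the median of each list and a dotted line at the median of all genes tested, 0.02. The mitotic genes, the kinetochore list and the replication list lie almost entirely below 0, and the anaphase-promoting complex and cytokinesis lists hold calls on both sides.

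Markers of cell types that the culture could hold also differed between the channels, most of them upward for smooth muscle, fibroblast and pericyte lists and in both directions for the rest. Of 8 measured smooth muscle markers 5 rose and none fell, with a summed linear level of 440500 to 467300 in the RapCA channel, against 183000 to 240800 in the vector channel. Of 7 measured fibroblast markers 5 rose and none fell, with sums of 628900 to 781700 in the RapCA channel, against 263500 to 316100 in the vector channel. Such sums rest mostly on the brightest markers of a list. For fibroblasts these were Col1a1 and Col1a2 in the RapCA channel (mean log2 levels of 18.2 and 18.1) and Col1a2 and Thy1 in the vector channel (17.1 and 16.2). Pericyte markers summed to 29580 to 34810 in the RapCA channel, against 9671 to 13530 in the vector channel, with 3 of 4 higher and 1 lower, and Abcc9 and Rgs5 were not above background on any array. Among the dim endothelial, leukocyte and epithelial markers Tek (1.16) and Lyz2 (0.52) were called higher and Kdr (-0.75) and Krt8 (-1.04) lower. Under median centring 4 smooth muscle markers were higher and 0 lower, and 4 fibroblast markers were higher and 1 lower. Acta2 was then at -0.24 and not called, against 0.54 and called higher in the reported fit. Col1a2 was at 0.10 and not called, against 0.96 and called higher in the reported fit. The part of these differences in the fall of the mitotic genes was not tested.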

How the data were processed

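Two-colour Agilent arrays were read with Feature Extraction; per the file headers its version was 10.7.3.1, while the submitters' processing notes give 10.9. Intensity values deposited in the scanner files are median spot and local background brightness in each channel, not normalized, per the file headers. The log10 ratios of Cy5 over Cy3 deposited by the authors, dye-normalized per the file headers, served as alternatives.

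Background was corrected by normexp (offset 50) and ratios by loess within arrays, with control spots at weight 0 and outlier spots left out. Spots of a probe were averaged, and 23511 of 41174 probes were kept, each clearly over background in 1 channel or both on all 4 arrays. Log2 ratios of Cy3 over Cy5 were tested against 0 with limma (lmFit and eBayes), adjusted by Benjamini-Hochberg over these probes and called under 0.05. Each probe needed values on at least 3 arrays. The array is the block, since each held both RNAs. Channel levels were further scaled by quantiles of mean intensity (Aquantile). The number of arrays, 4, limits precision, and ± values are SDs over arrays. The brightest probe stood for a gene. Symbols came from RefSeq accessions and were found for 64.9% of probes. Named were all listed genes, Rap1a, up to 4 called genes of each further list with the smallest p, and those called against its main direction. In the cytokinesis list, where calls went both ways, not every gene called higher was named. The genes and lists were chosen with earlier results of these data known. The scripts were tested on simulated data. Alternatives covered background correction, centring, the deposited ratios, filters, outlier spots, variance models, array weights, unpaired channels, each array left out and the mean of a gene's probes. R 4.3.3 was used with limma 3.58.1 and the package data.table (version 1.17.8).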

Additional observations from a re-analysis of the deposited data

How the results depend on the processing

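With 4 arrays in a single dye orientation, the direction of every ratio rests on the labels. The Rap1a probe was lower in the RapCA channel and above background in both channels, but whether it can check the labels is not known. No call of a mitotic gene was reversed under any planned setting, and none was called higher. The count called lower was 35 of 39 in the reported fit and 33 to 35 under other background corrections, the deposited log10 ratios, other filters, outlier spots kept, another variance model, unpaired channels and the mean of a gene's probes (34 of 38 where both channels had to be above background, which left Ttk untested). Median centring in place of loess gave 24, with a median of -1.50 over the mitotic genes and -0.17 over all genes, so that the difference from all genes was -1.33, against -1.25 in the reported fit. The number of probes called over the whole array moved further. In all, 11655 probes were called in the reported fit, 6549 with median centring and 17637 with array quality weights, which gave 39 mitotic genes with 37.1% of all genes called lower.

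Leaving out 1 array at a time gave 31 to 39 mitotic genes called lower, medians of -1.31 to -1.03 and 0 mitotic genes called higher throughout. Over all genes 2109 to 4220 were then called lower and 4777 to 8819 in either direction, and 7898 to 15745 probes were called in either direction. Treating the channels as unpaired samples, with no replicate block, left 33 called, and Anln (limma adjusted p = 0.0527) and Ttk (0.0892) were lost. With the mean of all probes Cdc25b was lost (0.176) and Kif23 passed (0.0367), and with no filter on dim probes Racgap1 was lost (0.0591). The causes were not tested.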

Other observations

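Outside the listed mitotic genes, 242 tested genes had a promoter with a homology-region match (TTTGAA or TTCGAA) and at least 2 CCAAT matches in the 300-base region. Of these, 40.9% were called lower in the RapCA channel and 18.2% higher, with a median log2 ratio of -0.22. Among 640 genes with a homology-region match and at least 1 CCAAT match 33.8% were called lower. Among 4851 genes with neither element 23.2% were called lower and 29.6% higher, with a median of 0.04. Over all 9900 tested genes outside the listed mitotic genes with a listed promoter, 24.7% were called lower. Genes of the further mitotic lists and of the replication list were not taken out of any of these sets, and their number was not counted. These shares describe promoter letters and were not tested.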
